A study of Mus musculus with 20 samples.

Results

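Heat shock proteins and their cochaperones were followed as a group of 35 genes in pyramidal cells of the mouse subiculum, through which much of the hippocampal output passes. The 35 members were named by gene symbol. They comprise 11 genes of the HSP70 and HSP110 family, 3 HSP90 genes, the 2 mitochondrial chaperonin genes, 3 small heat shock genes, 8 HSP40 genes, 6 cochaperones and 2 heat shock factors. The bulk table of 37607 gene rows held 34 members, since the identifier of Hspa14 in the annotation used for names matched no bulk row and its bulk level was not analysed here. A filter on low counts left 32 of these members among the 13916 genes tested, and Hspb1 and Hspb8 did not pass it. The single-cell table of 47295 gene rows held 32 members, and Hspd1, Hspe1 and Dnajb2 were not analysed there. The genes were put together with results of these data known, so their calls are a description of the members, and no value was computed for the list as evidence of its own.

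The bulk libraries were 3 biological replicates of each of 4 populations of subiculum pyramidal cells, named by the target they project to: NA, PFC, RSC and VHN. In this field NA usually stands for the nucleus accumbens, PFC for prefrontal and RSC for retrosplenial cortex, whereas VHN is not spelled out in the labels and is left as written. Replicate numbers follow the order of the deposited table. Since its numbering starts at 0 and that of the labels at 1, they may differ from the labels' within a population. Fluorescent neurons had been picked by hand from dissected slices, and the labels name no strain, age, treatment or stressor, nor the tracer that made the cells fluorescent. The single cells carried 1 common description and lay in 384 wells on 4 plates, Q5 to Q8. The labels do not tie wells to projection targets.

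Chaperones bind unfolded stretches of other proteins and help them fold, assemble or be degraded. HSP70 proteins work in cycles of ATP hydrolysis that HSP40 proteins start and HSP110 proteins reset by releasing ADP. HSP90 proteins take over partly folded clients from HSP70, handed on by linker cochaperones such as Stip1, and stabilise kinases and steroid receptors. Heat shock factor 1 raises many of these genes when unfolded proteins accumulate, through heat shock elements in their promoters. Neurons carry large amounts of the constitutive members, among them Hspa8, which uncoats clathrin vesicles and takes part in synaptic vesicle cycling.

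Gene fragments per bulk library ranged from 10777271 to 20904122, and 348 wells with at least 1000 detected genes had a median of 112401 counts (2795 to 322542). Markers of excitatory neurons were high in all 12 libraries, as the label asks: the vesicular glutamate transporter Slc17a7 ranged from 513 to 1024 CPM (counts per depth of the library, scaled by TMM). The 8 excitatory markers summed to 3466 to 5155 CPM in NA and PFC and to 2716 to 3344 in RSC and VHN, with no overlap, and 5 of the 8 passed the test, with NA and PFC the higher side in 4 and the lower in 1, Slc17a6. Some libraries stood apart. NA replicate 2 lay alone on the second principal component of all genes and PFC replicate 3 on the third. The gene of the GABA-synthesising enzyme, Gad2, was raised in 3 libraries: it was at 43.3 CPM in RSC replicate 2, 177 in RSC replicate 3 and 91.9 in VHN replicate 3, against 0 to 7.40 CPM in the other 9. The 10 interneuron markers summed to 238 to 892 CPM in NA, 625 to 1010 in PFC, 399 to 639 in RSC and 385 to 511 in VHN, and 1 of them, Vip, was at 0 in all libraries. In the 3 libraries with raised Gad2 this sum was 399, 639 and 453 CPM, within the range of the others. Abundant markers weigh most in the sum, so it cannot show whether these 3 libraries hold more interneuron RNA. The 6 endothelial and mural markers summed to 24.0 to 91.8 CPM in NA and PFC and 2.02 to 21.5 in RSC and VHN, with Cldn5 at 0 throughout. The 7 astrocyte markers summed to 285 to 615 CPM in NA and PFC and 62.1 to 388 in RSC and VHN. Of the 7 interneuron markers tested 4 were called lower in NA and PFC than in RSC and VHN, and of the glial and vascular lists the astrocyte gene Slc1a2 and the mural gene Rgs5 were called higher. The part of these markers, the excitatory ones included, in the results below was not tested, except that results are given without the 3 libraries with raised Gad2, and without NA replicate 2 and PFC replicate 3, where a call changed.

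Per length of transcript, Hspa8 was the most abundant member, at a mean of 868 FPKM (fragments per length of transcript and depth, as deposited) over the 12 libraries. The 2 cytosolic HSP90 genes followed, with Hsp90ab1 at 804 FPKM and Hsp90aa1 at 703 FPKM, and the HSP40 gene Dnaja1 was next at 293 FPKM. Hspa8 spanned 662 to 1085 FPKM, Hsp90ab1 537 to 957 and Hsp90aa1 481 to 1052, so the order among these 3 genes does not hold in each library. At the other end Hspb1 was listed at 0, and Hspb8, Hspa1b, Cryab, Dnajb2 and Bag3 had means of 0.342, 0.343, 0.507, 1.31 and 2.05 FPKM. Hspa8, Hspe1 and the cytosolic HSP90 genes have processed copies elsewhere in the genome, and how fragments shared between copies were assigned is not given in the sources used here, so their levels are uncertain to that extent.

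**Figure D1:**
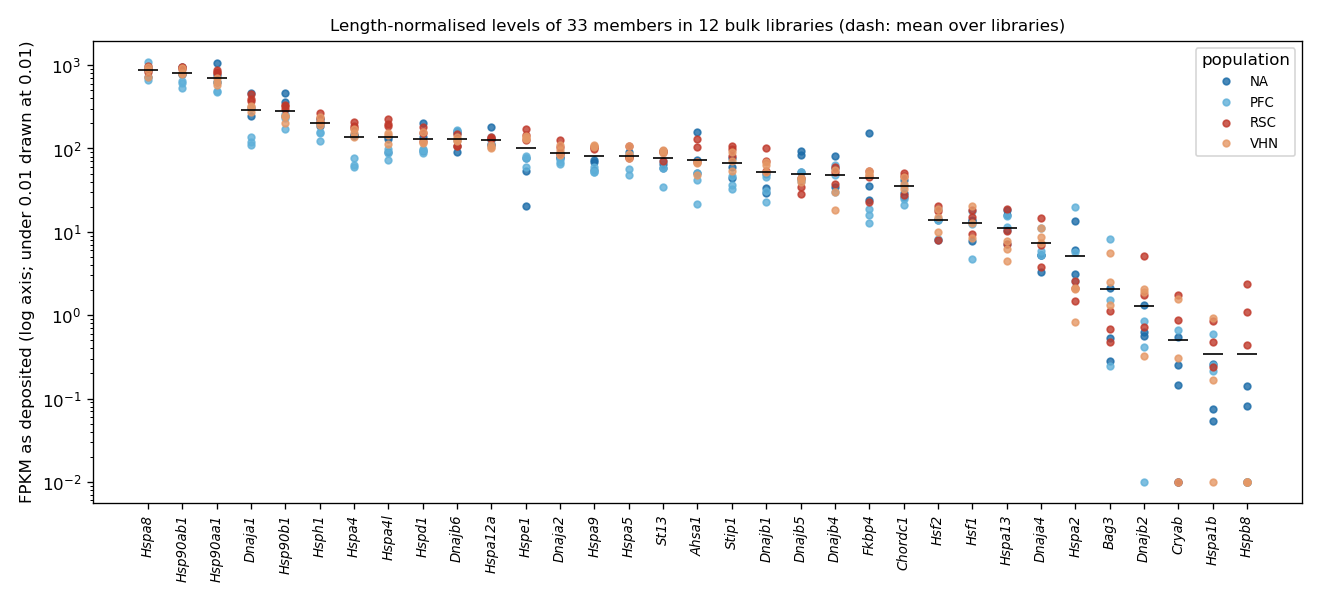
FPKM as deposited (log axis, values under 0.01 drawn at 0.01) of 33 members, ordered by their mean, with 1 point per bulk library coloured by population and a dash at the mean over the 12 libraries. Hspa8, Hsp90ab1 and Hsp90aa1 lie above the rest, and Hspb8, Hspa1b, Cryab, Dnajb2 and Bag3 lie at the low end.

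The populations were compared with edgeR's quasi-likelihood test, with all 12 libraries in 1 fit and Benjamini-Hochberg adjustment over all 13916 genes. A gene is called when its adjusted p is under 0.05. In the 4-group test 9 of 32 members were called (Hspa4, Hspa4l, Hspa9, Hsp90ab1, Hspe1, Hsph1, Dnaja1, Dnajb1 and Stip1), beside 8.93% of all genes. When NA and PFC were set against RSC and VHN, the division that earlier results of these data had shown to be the widest, 11 of 32 members were called, beside 14.2% of all genes. Of the 11, 10 were lower in NA and PFC, where 6.66% of all genes were called lower. The exception was Hspa2. The median log2 fold change of the 32 tested members was -0.37, against 0.01 over all genes tested. A negative sign was found in 26 members and in 6874 of all 13916 genes. In 4 members (Hspa4, Hspa9, Hspe1 and Dnajb1) all 6 NA and PFC libraries lay below all 6 RSC and VHN libraries, as in 3.95% of all genes. In bulk RNA, fewer cells of a type and less RNA of a gene per cell cannot be told apart.

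**Figure D2:**
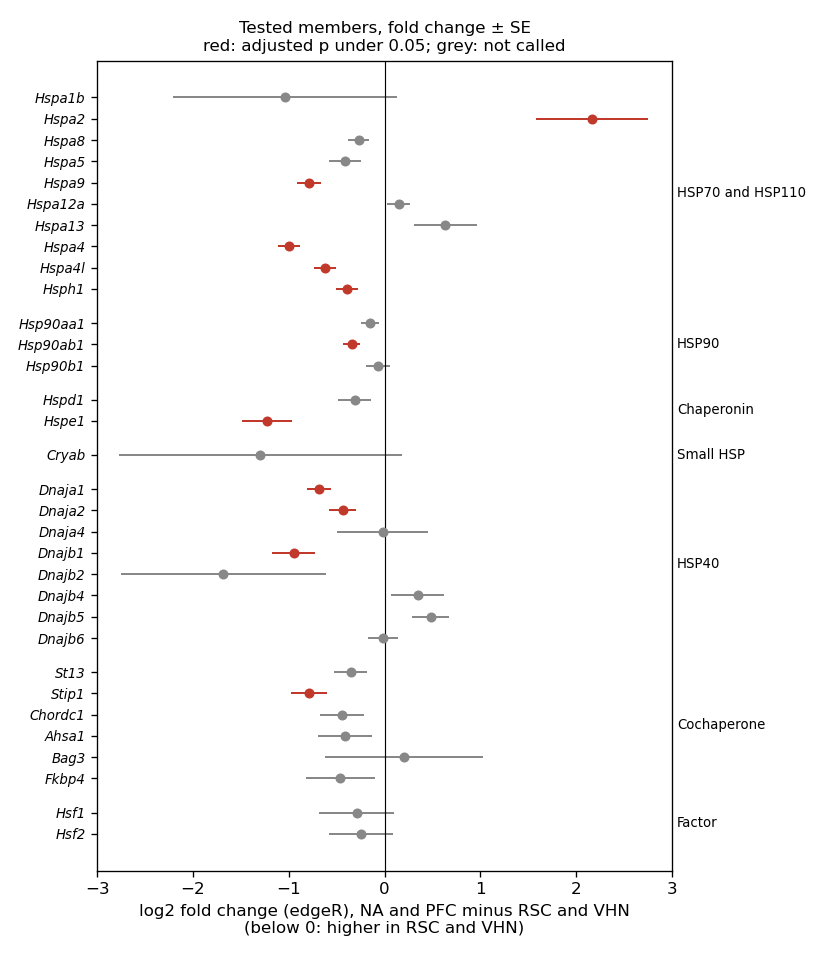
Log2 fold change of NA and PFC minus RSC and VHN (edgeR) for the 32 tested members, grouped by family, with bars of 1 standard error; red points have an adjusted p under 0.05. Of the 11 red points 10 lie left of 0, higher in RSC and VHN, and Hspa2 lies to the right at 2.17.

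In the HSP110 branch, whose products release ADP from HSP70 and so set the pace of its cycle, all 3 members were lower in NA and PFC. Hspa4 was at 533, 536 and 586 CPM in NA, 279, 351 and 260 in PFC, 841, 984 and 879 in RSC, and 633, 716 and 817 in VHN. All 6 libraries of NA and PFC lay below the 6 others, and PFC also lay below NA without overlap. Hspa4 averaged 424 ± 144 CPM (SD, n = 6) in NA and PFC and 812 ± 123 (SD, n = 6) in RSC and VHN, a 1.91-fold ratio, with a log2 fold change of -0.996 ± 0.113 (SE, adjusted p = 2.3e-05, edgeR). It was the member with the lowest adjusted p, and was called in each of the 19 alternative settings run. Hspa4l, its close relative, was at 653, 584 and 817 CPM in NA, 736, 613 and 653 in PFC, 1033, 1253 and 1401 in RSC, and 1014, 806 and 825 in VHN. RSC lay above all NA and PFC libraries, while VHN overlapped NA. The log2 fold change of Hspa4l was -0.62 ± 0.12 (SE, adjusted p = 0.00176, edgeR). Hsph1, the heat-inducible HSP110, was at 670, 611 and 786 CPM in NA, 541, 533 and 445 in PFC, 718, 934 and 806 in RSC, and 662, 711 and 830 in VHN. NA overlapped RSC and VHN, and PFC was the population below all others. Its log2 fold change was -0.39 ± 0.11 (SE, adjusted p = 0.0276, edgeR), and this call was lost in 8 of 19 settings, among them the omission of the 3 libraries with raised Gad2 (-0.24) and of NA replicate 2 and PFC replicate 3 (-0.31).

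Among the HSP70 genes themselves, Hspa9 was the one called lower in NA and PFC. Hspa9 (mortalin) pulls proteins into the mitochondrial matrix and folds them there. It was at 217, 224 and 170 CPM in NA, 159, 185 and 161 in PFC, 328, 323 and 307 in RSC, and 325, 303 and 334 in VHN. Every NA and PFC library lay below every RSC and VHN library, with the 6 latter close together. The mean was 186 ± 28.3 CPM (SD, n = 6) in NA and PFC against 320 ± 12.3 (SD, n = 6), 1.72-fold, with a log2 fold change of -0.79 ± 0.13 (SE, adjusted p = 0.000493, edgeR), and Hspa9 was called in all 19 settings. Hspa8, the constitutive cytosolic HSP70, was at 1052, 777 and 1128 CPM in NA, 1034, 836 and 1091 in PFC, 1240, 1311 and 1164 in RSC, and 1072, 1219 and 1139 in VHN. Its libraries overlapped and its log2 fold change of -0.27 ± 0.11 (SE) was not called (adjusted p = 0.114, edgeR). Hspa5 (BiP), the HSP70 of the endoplasmic reticulum, ranged from 122 to 205 CPM in NA and PFC and from 191 to 277 in RSC and VHN (adjusted p = 0.118, edgeR).

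Hspa2 ran the other way. This HSP70 is best known from the testis, where it is needed in spermatocytes. It was at 15.5, 34.4 and 8.03 CPM in NA, 14.7, 50.3 and 6.56 in PFC, 5.48, 6.62 and 3.82 in RSC, and 5.46, 2.14 and 5.25 in VHN. Its highest values came from 1 NA and 1 PFC library, and the lowest PFC library lay within the RSC range. The log2 fold change was 2.17 ± 0.59 (SE, adjusted p = 0.0192, edgeR). The call was lost in 5 of 19 settings, including the omission of PFC replicate 2, RSC replicate 3 or VHN replicate 2. The other members of this family were not called: Hspa12a, an atypical HSP70, ranged from 595 to 1044 CPM over the 12 libraries, and Hspa13, a microsomal HSP70, from 18.4 to 73.2 CPM.

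**Figure D3:**
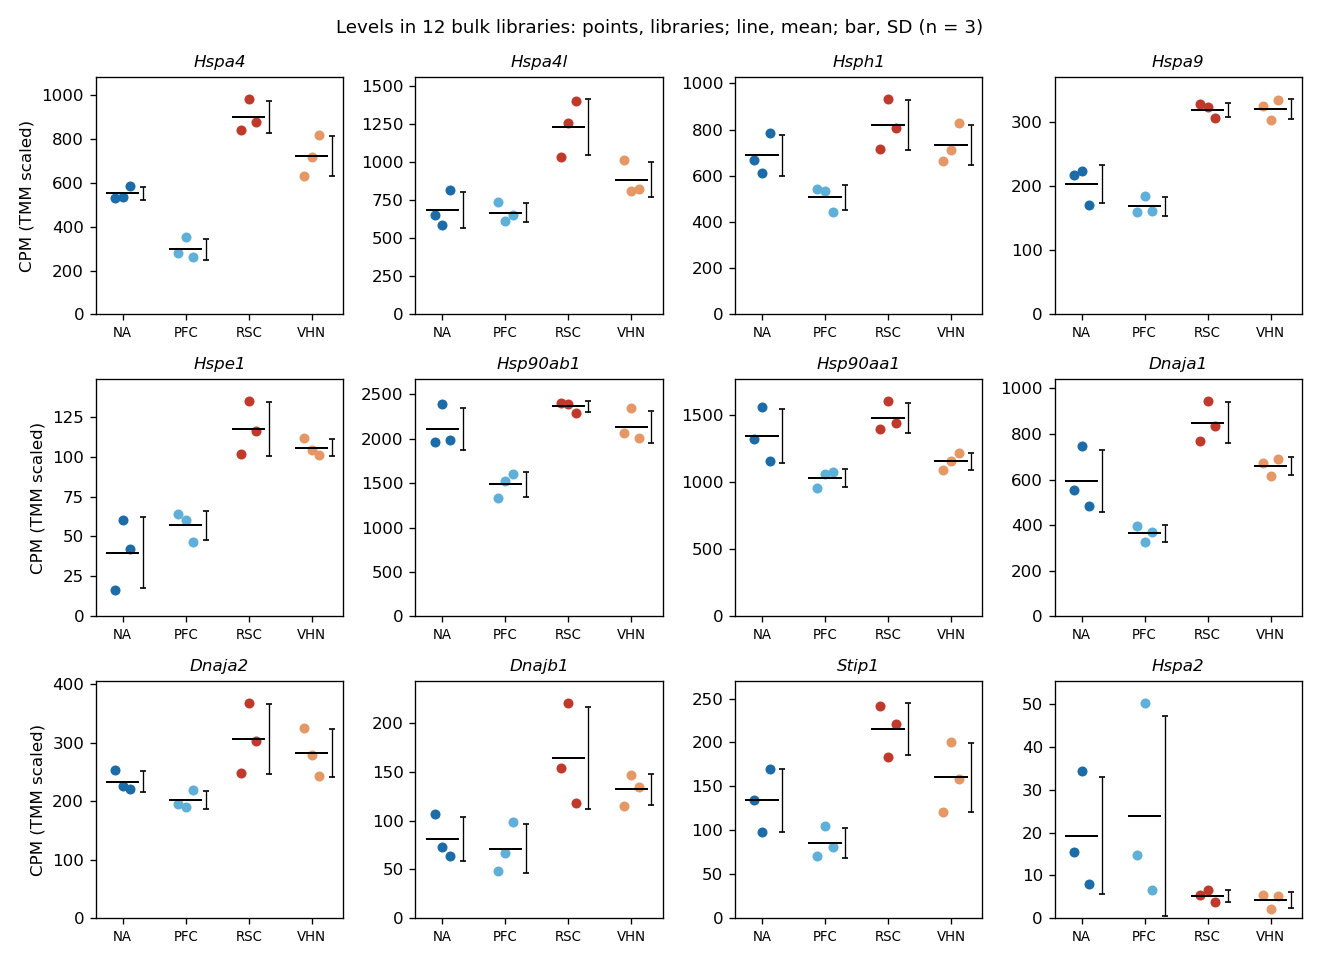
CPM scaled by TMM (linear axes from 0) of 12 members in the 4 populations, with 1 point per library (n = 3), a line at the mean and a bar of 1 SD. Hspa4, Hspa9, Hspe1 and Dnajb1 show no overlap between NA and PFC on one side and RSC and VHN on the other, whereas for Hsp90aa1 and Hsp90ab1 the PFC libraries lie lowest and NA lies with or near RSC and VHN.

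In all 3 HSP90 genes PFC was the population with the lowest mean. Hsp90ab1, the constitutive cytosolic HSP90, was at 1962, 2387 and 1992 CPM in NA, 1331, 1521 and 1608 in PFC, 2406, 2396 and 2290 in RSC, and 2060, 2343 and 2004 in VHN. All 3 PFC libraries lay below the other 9, and NA overlapped VHN. It was called for NA and PFC against RSC and VHN (log2 fold change -0.34 ± 0.09, SE, adjusted p = 0.0135, edgeR) and, with larger differences, for PFC minus RSC (-0.67 ± 0.12, SE) and PFC minus VHN (-0.52 ± 0.12, SE). Hsp90aa1, the inducible cytosolic form, was at 1320, 1557 and 1158 CPM in NA, 957, 1061 and 1078 in PFC, 1397, 1607 and 1439 in RSC, and 1087, 1161 and 1216 in VHN. It was called in 1 contrast, PFC minus RSC (-0.52 ± 0.14, SE, adjusted p = 0.0216, edgeR), and that call held in 7 of the 12 fits that leave out 1 library. Hsp90b1 (GRP94), the HSP90 of the endoplasmic reticulum, was at 801, 755 and 525 CPM in NA, 482, 452 and 370 in PFC, 682, 707 and 584 in RSC, and 485, 454 and 576 in VHN. NA and RSC were the 2 higher populations here, and the call was again PFC minus RSC (-0.60 ± 0.18, SE, adjusted p = 0.0479, edgeR), beside 9.76% of all genes called in that contrast. The call of Hsp90b1 held in 2 of the 12 fits that leave out 1 library. Without the 3 libraries with raised Gad2 neither gene was called (adjusted p = 0.491 for Hsp90aa1 and 0.364 for Hsp90b1, edgeR).

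Hspa5 and Hsp90b1, both of the endoplasmic reticulum, share a promoter feature. RefSeq windows from 250 bases before to 50 bases after each gene's start (GRCm38.p6) matched 27 of the 35 members, and the microsomal Hspa13 was not among the 27. The endoplasmic reticulum stress response element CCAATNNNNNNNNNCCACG, searched on both strands, lay in the windows of these 2 members and in 0.137% of 27025 genes. It is shown here in capitals for both genes, on the gene's own strand, because it is the letter pattern that these 2 members share and no other matched member has.
Hspa5, chr2:34772010-34772058, plus strand: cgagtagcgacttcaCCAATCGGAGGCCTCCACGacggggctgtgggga
Hsp90b1, chr10:86705623-86705671, minus strand: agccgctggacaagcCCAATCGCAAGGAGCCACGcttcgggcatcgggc
In Hspa5 the element spans positions -65 to -47 from the start, and in Hsp90b1 the first of 2 elements spans -212 to -194. Neither gene was called for NA and PFC against RSC and VHN.

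The mitochondrial chaperonin pair folds proteins in the matrix: Hspd1 encodes the HSP60 barrel and Hspe1 its HSP10 lid. Hspe1 was at 16.3, 60.6 and 42.4 CPM in NA, 64.0, 60.5 and 46.8 in PFC, 101, 135 and 116 in RSC, and 112, 104 and 101 in VHN. NA and PFC thus lay wholly below RSC and VHN. With 48.4 ± 17.9 CPM (SD, n = 6) in NA and PFC and 112 ± 12.9 (SD, n = 6) in RSC and VHN, a 2.30-fold ratio, Hspe1 had a log2 fold change of -1.23 ± 0.27 (SE, adjusted p = 0.00472, edgeR). Hspd1 was at 333, 494 and 229 CPM in NA, 205, 226 and 233 in PFC, 373, 442 and 304 in RSC, and 285, 288 and 391 in VHN. NA spanned a wide range that covered the RSC and VHN libraries, its highest value coming from NA replicate 2, and the log2 fold change of -0.31 ± 0.17 (SE) was not called (adjusted p = 0.26, edgeR). Without NA replicate 2 and PFC replicate 3, Hspd1 was called at -0.49. Whether the 2 genes differed from each other in their response was not tested.

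Hspd1 and Hspe1 lie head to head and share 1 promoter region. It holds a heat shock element, here GAANNTTCNNGAA or TTCNNGAANNTTC (3 inverted units, overlapping matches allowed), which was found in 5 of 27 matched members (Hspd1, Hspe1, Hsph1, Dnajb6 and Chordc1, 18.5%) and in 0.662% of 27025 genes. With 2 units only, GAANNTTC or TTCNNGAA, a match lay in 13 of 27 members and 17.0% of genes. The same 48 bases are printed on the strand of each gene, with the matches in capitals. They were chosen because this stretch lies in windows of both a called and an uncalled member.
Hspe1, chr1:55088044-55088091, plus strand: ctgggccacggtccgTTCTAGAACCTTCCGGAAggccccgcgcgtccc
Hspd1, chr1:55088044-55088091, minus strand: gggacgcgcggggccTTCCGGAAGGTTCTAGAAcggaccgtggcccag
The matches span -89 to -72 from the start of Hspe1 and -144 to -127 from 1 start of Hspd1. The window of another Hspd1 start held no match of 3 units. The other 3 members with such a match were not alike in their values: Hsph1 was called, while Dnajb6 (160 to 265 CPM over the 12 libraries, adjusted p = 0.97, edgeR) and Chordc1 (46.5 to 115 CPM, adjusted p = 0.218, edgeR) were not. Their elements follow, to let the spacing of the units be compared.
Hsph1, chr5:149636280-149636308, minus strand: gctgcagaTTCTGGAAAGTTCtcctcagt
Dnajb6, chr5:29735837-29735879, plus strand: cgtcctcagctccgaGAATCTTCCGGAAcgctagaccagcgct
Chordc1, chr9:18292260-18292288, plus strand: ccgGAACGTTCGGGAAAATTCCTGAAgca
In Hsph1 the match lies after the start, at 16 to 28 from 1 start and 37 to 49 from the other. In Chordc1 the matches run together from -4 to 19. A match is a description of the letters, and binding of a factor was not measured.

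The HSP40 genes encode J-domain proteins, which deliver clients to HSP70 and start its ATPase, and 3 of the 8 were called lower in NA and PFC. Dnaja1, the one with the highest FPKM, was at 556, 747 and 483 CPM in NA, 397, 325 and 368 in PFC, 768, 946 and 837 in RSC, and 672, 614 and 691 in VHN. PFC lay below all other libraries and NA overlapped VHN. Dnaja1 had a log2 fold change of -0.69 ± 0.12 (SE, adjusted p = 0.00108, edgeR), and -1.23 ± 0.17 (SE) for PFC minus RSC. Dnajb1, the heat-inducible partner of HSP70, was at 107, 72.7 and 64.0 CPM in NA, 48.4, 67.1 and 98.8 in PFC, 154, 221 and 118 in RSC, and 115, 146 and 135 in VHN. NA and PFC again lay below RSC and VHN, although the gap between the highest NA library and the lowest VHN library was small. Its log2 fold change was -0.95 ± 0.22 (SE, adjusted p = 0.00848, edgeR). The call of Dnajb1 for PFC minus RSC held in 8 of the 12 fits that leave out 1 library. Dnaja2, a relative of Dnaja1, was at 254, 226 and 221 CPM in NA, 195, 190 and 219 in PFC, 248, 369 and 303 in RSC, and 325, 280 and 243 in VHN. RSC and VHN each had 1 library within the NA range, and the call (-0.44 ± 0.14, SE, adjusted p = 0.0418, edgeR) held in 6 of 19 settings. Dnajb5 was at 136, 177 and 128 CPM in NA, 73.8, 108 and 79.3 in PFC, 66.9, 55.3 and 91.4 in RSC, and 85.1, 101 and 91.2 in VHN. NA lay above all other libraries, and the call was NA minus RSC (1.05 ± 0.28, SE, adjusted p = 0.0331, edgeR), which held in 8 of the 12 fits that leave out 1 library. Dnajb4, Dnajb6, Dnaja4 and Dnajb2 were not called.

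Of the 6 cochaperones 1, Stip1 (HOP), was called for NA and PFC against RSC and VHN. Stip1 links HSP70 to HSP90 so that clients can pass. It was at 135, 98.0 and 170 CPM in NA, 71.2, 105 and 81.2 in PFC, 242, 183 and 222 in RSC, and 121, 200 and 159 in VHN. RSC lay above all NA and PFC libraries, and VHN overlapped NA. The log2 fold change was -0.79 ± 0.19 (SE, adjusted p = 0.00904, edgeR). Ahsa1, the activator of the HSP90 ATPase, was at 99.3, 214 and 71.0 CPM in NA, 68.9, 56.7 and 29.8 in PFC, 145, 94.4 and 181 in RSC, and 95.1, 91.8 and 66.1 in VHN, and was called for PFC minus RSC (-1.43 ± 0.41, SE, adjusted p = 0.0336, edgeR). That call held in 8 of the 12 fits that leave out 1 library and was lost without the 3 libraries with raised Gad2 (adjusted p = 0.245, edgeR). Fkbp4, an HSP90 partner in steroid receptor complexes, is described because 1 library decides its value, which was seen in the data: NA replicate 2 was at 350 CPM and the other 11 libraries at 25.8 to 124. It was not called (-0.46 ± 0.36, SE, adjusted p = 0.454, edgeR), and without NA replicate 2 it was called at -1.09. St13 (72.4 to 154 CPM) and Chordc1 were not called.

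The 2 factors, Hspa1b, Bag3 and Cryab were not called, and Hspb1 and Hspb8 were not tested. Hsf1, the main stress-activated factor, ranged from 9.66 to 42.5 CPM, and Hsf2, a related factor, from 21.0 to 55.6 CPM, with overlap among all 4 populations. Hspa1b, the classic heat-inducible HSP70, was at 0.746, 0.214 and 0.156 CPM in NA, 0.607, 0.693 and 1.69 in PFC, 0.692, 1.38 and 2.46 in RSC, and 2.68, 0.476 and 0 in VHN (adjusted p = 0.619, edgeR). Its near-identical copy Hspa1a can share fragments with it, so the split between the 2 genes is uncertain. Bag3, the cochaperone of stress-induced autophagy, was at 0.746, 1.39 and 5.58 CPM in NA, 3.99, 21.5 and 0.656 in PFC, 1.27, 3.03 and 1.84 in RSC, and 6.62, 14.7 and 3.50 in VHN, with a wide spread within each population. Hspb1 was listed at 0 in all 12 libraries, which allows up to 0.144 to 0.278 CPM per library by counting error. Hspb8 had 84 fragments in all, at 0.435 to 2.10 CPM in RSC and at most 0.107 CPM in any other library, and was not tested. Cryab ranged from 0 to 1.49 CPM.

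Ordered by mean CPM, PFC was lowest in 21 of the 32 tested members and RSC highest in 20, not counted over all genes. The summed CPM of the 34 members followed this order, at 8253 to 8324 in PFC, 10107 to 11770 in NA, 10714 to 11236 in VHN and 12571 to 13747 in RSC. PFC lay below and RSC above all other libraries, and NA and VHN overlapped, in a sum led by abundant members such as Hsp90ab1. Between neighbours in this order few members were called. For NA minus PFC 1 member was called, Hspa4, higher in NA (0.89 ± 0.16, SE, adjusted p = 0.0185, edgeR), beside 0.438% of all genes, 0.402% being higher in NA. This call was lost without PFC replicate 1, without PFC replicate 3, without NA replicate 2 and PFC replicate 3 (adjusted p = 0.0607), without the 3 libraries with raised Gad2 (0.0771) and with no scaling beyond the total (0.0805, edgeR), while DESeq2 called 5 members. For NA minus VHN no member was called by edgeR, beside 2.75% of all genes. An unadjusted p under 0.05 was found for 9 members and 2422 of 13916 genes (edgeR), and DESeq2 called 3 members. For RSC minus VHN no member was called by edgeR or DESeq2, beside 0% of all genes by edgeR. Here 4 members and 721 of 13916 genes had an unadjusted p under 0.05 (edgeR). The shares of all genes that DESeq2 called in these pairs are not reported here. The pairs further apart differed in more members. PFC minus RSC had 11 called, each lower in PFC, where 4.88% of all genes were called lower: Hspa4, Hspa4l, Hspa9, Hsp90aa1, Hsp90ab1, Hsp90b1, Hsph1, Dnaja1, Dnajb1, Stip1 and Ahsa1. The number was 7 without PFC replicate 2, RSC replicate 1 or RSC replicate 2 and 15 without NA replicate 2, and without the 3 libraries with raised Gad2 Hspa4 alone was called. PFC minus VHN had 4, all lower in PFC (Hspa4, Hspa9, Hsp90ab1 and Dnaja1), beside 5.09% of all genes and 2.67% lower in PFC, with 7 called without NA replicate 2 and Hspa4 alone without the 3 libraries with raised Gad2. NA minus RSC had 5, with Hspa4, Hspa4l, Hspa9 and Hspe1 lower in NA and Dnajb5 higher, beside 5.83% of all genes, 2.36% lower and 3.47% higher in NA. Among them Hspa9 kept its call in 3 of the 12 fits that leave out 1 library. Of these 5, 1 was called without RSC replicate 2, 3 without NA replicate 1, RSC replicate 1 or RSC replicate 3, and 0 without the 3 libraries with raised Gad2. These pairwise contrasts share libraries and are not independent of each other. The shares of all genes called with libraries left out are not reported here for these pairs. Whether the counts of members moved more than those shares was not tested.

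The 3 libraries with raised Gad2 belong to RSC and VHN, the side on which most called members were higher. Without them 2 of the 11 members, Hspa4 and Hspa9, were called for NA and PFC against RSC and VHN, beside 4.66% of all genes, while the median log2 fold change of the members was -0.38 against -0.37 with all libraries. Over all genes tested the median moved from 0.01 to 0.14. The 9 members that lost the call kept their sign, for example Hspe1 at -1.12, Dnajb1 at -0.89, Stip1 at -0.87 and Dnaja1 at -0.58. RSC then has 1 library and VHN 2, and the lone RSC library was taken to vary like the other groups.

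Other chaperone systems were read from lists that do not overlap the members. The TRiC chaperonin folds actin and tubulin, with prefoldin as its delivery factor, and 6 of its 14 tested subunit genes were called lower in NA and PFC and 0 higher. Among them were Cct7 (78.9 ± 22.4 against 198 ± 32.9 CPM, SD, n = 6 each), Cct3 (25.02 ± 5.10 against 91.6 ± 18.4) and Pfdn5 (41.4 ± 7.40 against 109 ± 16.03). The summed CPM of the 14 genes was 911 to 1078 in the 6 NA and PFC libraries and 1276 to 1482 in the 6 others, with no overlap. Of 19 mitochondrial chaperones and proteases 2 were called, both lower in NA and PFC: Dnajc11, and Trap1, the mitochondrial HSP90, at 57.9 ± 17.3 against 103 ± 27.3 CPM (SD, n = 6 each). In the endoplasmic list NA and PFC had the higher level in all 4 genes called, of 29 tested (Dnajc1, Dnajc10, Pdia4 and Syvn1).

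Among 23 further cytosolic HSP70, HSP40 and small heat shock genes 2 were higher (Dnajb14 and Dnajc13) and 2 lower in NA and PFC (Dnajc27 and Dnajc7). Of 32 further cochaperones Bag6 and Hsbp1, a small binding partner of heat shock factor, were higher and Bag1 was lower. Of 14 genes of oxidative and metal stress, Mt1, a metal-binding metallothionein, was lower (33.9 ± 9.56 against 98.3 ± 15.1 CPM, SD, n = 6 each) and Hmox1 higher. Of 19 immediate early genes, which respond to activity and handling, 4 were higher in NA and PFC (Nr4a3, Egr3, Egr1 and Arc) and 3 lower (Ier5, Nr4a2 and Fosl2). These counts are to be read against 7.58% of all genes called higher and 6.66% lower.

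In single wells the abundant members were present nearly everywhere. Hsp90aa1 and Hsp90ab1 had a count in all 348 wells, Hspa8 in 99.7%, Hsp90b1 in 99.4% and Dnaja1 in 98.3%. Summed over wells, Hsp90ab1 reached 4648 CPM (4444 to 5050 across plates), Hsp90aa1 2230 CPM (2067 to 2505) and Hspa8 837 CPM (757 to 973), values that are not per length and so give no order among the genes. Middle members were seen in most wells: Hspa4 in 81.0% (95% exact binomial interval 76.5 to 85.0), Hspa9 in 89.9% (86.3 to 92.9), Hsph1 in 93.7% (90.6 to 96.0), Stip1 in 81.9% (77.4 to 85.8) and Dnajb1 in 62.1% (56.7 to 67.2). These intervals cover counting error only, and shares fall with depth: with each well thinned to 20000 counts, in the 340 wells that had as many, Hspa4 was seen in 65.3% and Dnajb1 in 40.9%. Hsf1 was seen in 24.4% of wells and Hsf2 in 22.7%. Hspa14, without a bulk value, was seen in 12.9% of wells.

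The rarest members were concentrated in a few wells, and those were chosen for description by their low shares. Hspb1, a small heat shock protein of muscle and stressed cells, had a count in 6 of 348 wells (1.72%, 95% exact binomial interval 0.635 to 3.72), and Hspb8 in 2. Of the 45 counts of Hspb1, 41 lay in 4 of the 22 wells without any count of the glutamate transporter Slc17a7. These 22 wells together hold 1.99% of all counts. In 4 of the 6 wells with Hspb1 the highest non-neuronal marker was Acta2, the actin of smooth muscle and mural cells. How often Acta2 led in wells without these members is not reported here. For Cryab, 36 of 39 counts lay in 4 of the same 22 wells, and for Hspb8 6 of 6 lay in 2 of them. The wells overlapped, so these genes are not separate observations: the Q6 well with 36304 counts in total carried Hspb1, Hspb8 and Cryab. Bag3 was spread more widely, with 39 of 99 counts in the 22 wells and 12 of its 15 wells carrying Slc17a7. Hspa1b had at most 2 counts in any of its 6 wells, all of which carried Slc17a7. In bulk Acta2 was at most 0.387 CPM in any library.

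The labels give no projection target for a well, so wells were divided by neurotensin (Nts), a peptide gene that earlier results of these data showed to be higher in RSC and VHN. This yields a range of Nts and not a cell type: 204 wells had at least 100 CPM of Nts and 144 had less, with 65 wells between 50 and 200 CPM. The division went with the bulk difference in Slc17a6 and Neurod6. Slc17a6, a second glutamate transporter that is higher in RSC and VHN, was 2.67-fold higher in Nts-high wells. Neurod6, a transcription factor gene that is lower in RSC and VHN, was at 0.58 of the Nts-low level in Nts-high wells. How closely the division follows the bulk one over other genes was not tested, so ratios in wells and bulk may not be comparable in size. Apart from Hspa2, the members called in bulk and measured in wells had ratios between 0.86 and 1.12 here. Hspa4 was at 131 CPM in Nts-high wells (95% Poisson interval 127 to 136) and 133 CPM in Nts-low wells (127 to 139), a ratio of 0.98 where bulk gave 1.91. The intervals cover counting error only and not the spread between wells, whose quartiles for Hspa4 were 12.4 and 197 CPM. Hspa9 was at 188 and 190 CPM, a ratio of 0.99 where bulk gave 1.72. Dnaja1 (1.05), Hspa4l (1.11) and Dnajb1 (1.12) were slightly above 1, and Hsp90ab1 (0.94) and Stip1 (0.86) below it.

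Over the 27 members with at least 100 counts in each class, 9 had a ratio above 1 and the median ratio was 0.969, beside 46.1% above 1 and a median of 0.978 for 9004 genes counted as deeply. No member was higher in Nts-high wells on all 4 plates, as 11.3% of the genes were, and 2 were lower on all 4, as 12.8% were. These were Hspa2, at 6.59 against 16.5 CPM (ratio 0.40), and Hsp90b1, at 613 against 700 CPM (ratio 0.88). Hspa2 had the same sign in bulk, lower in RSC and VHN. With all wells in 1 pooled sample there is no test here, and all 22 wells without Slc17a7 fell in the Nts-low class.

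**Figure D4:**
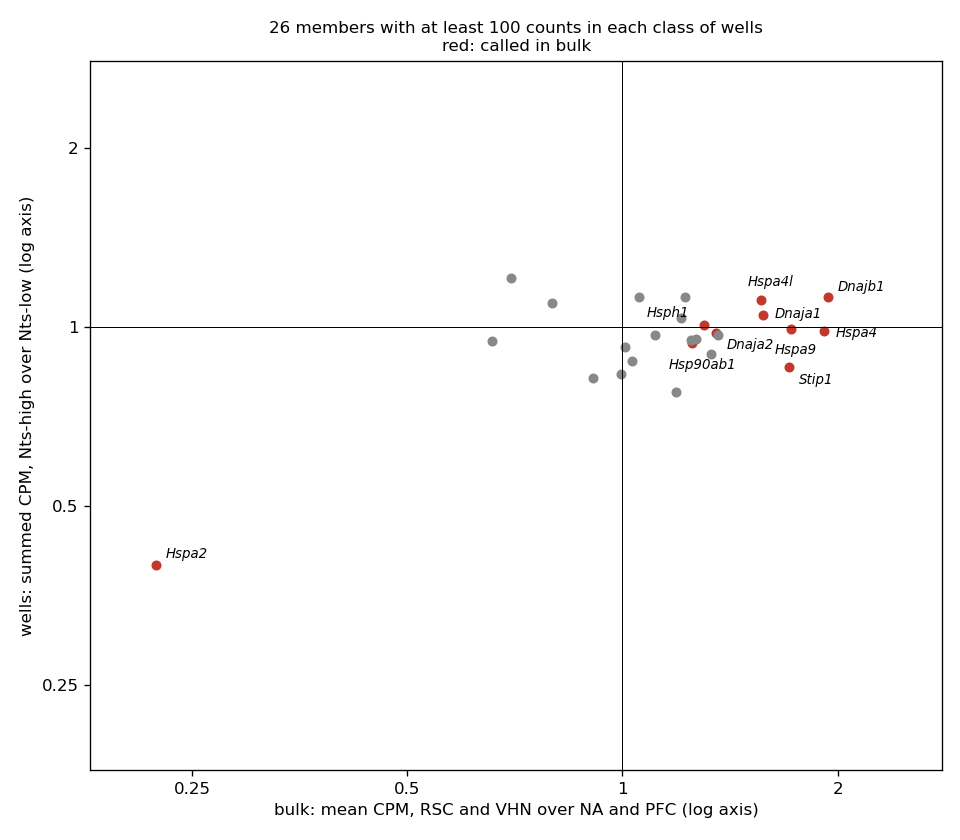
For the 26 members with a bulk test and at least 100 counts in each class of wells, the ratio of mean bulk CPM in RSC and VHN over NA and PFC (x, log axis) is plotted against the ratio of summed CPM in Nts-high over Nts-low wells (y, log axis); red points were called in bulk. The called members at the right, up to 1.94 in bulk, lie between 0.86 and 1.12 in the wells, and Hspa2 is low on both axes.

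Among 20 members and 190 pairs the median Spearman rho of CPM was 0.030 over the 348 wells, as a description with no test, since wells share plates and differ in depth. The highest value was that of the 2 cytosolic HSP90 genes, Hsp90aa1 and Hsp90ab1, at 0.262 (0.257 after thinning, 0.186 to 0.356 within plates). Next came Hspa5 and Hsp90b1, both of the endoplasmic reticulum, at 0.220 (0.197 after thinning, 0.039 to 0.448 within plates). Hspa8 and Dnaja1, an HSP70 gene and an HSP40 gene, followed at 0.176 (0.099 after thinning). Then came Hspa4l and Hspa12a at 0.157 (0.119 after thinning). Hsph1 and Dnaja2 were also at 0.157 (0.099 after thinning, -0.077 to 0.208 within plates). Below the HSP90 pair and the endoplasmic pair the order changed with thinning. For example, Hspa4l and Dnajb1 went from 0.114 to 0.154, above Hspa8 and Dnaja1. The lowest values were those of Hspa5 and Dnaja1 at -0.221 (-0.120 after thinning, -0.326 to -0.140 within plates) and of Hsp90b1 and Hsph1 at -0.167 (-0.172 after thinning, -0.302 to 0.024 within plates).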

How the data were processed

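Bulk values came from a Cuffdiff read-group table. The file headers name raw fragments and FPKM. The authors' raw fragments were read as estimated counts per gene and library without normalization, and their FPKM as scaled per library. The build was mm9 per the submitters' processing notes, and the aligner is not given in the sources used here. The deposited single-cell counts are whole numbers per gene and well. Of the bulk counts above 0, 8.51% were not whole, and all were rounded. The 92 spike-in rows, at 0 throughout, were left out. Symbols came from GENCODE by identifier (87.5% of rows). Genes were filtered with filterByExpr (minimum count 10), scaled by TMM and tested with edgeR 4.0.16 (R 4.3.3, quasi-likelihood, adjusted p threshold 0.05, common biological coefficient of variation 0.736), with steps tested on simulated data. DESeq2 1.42.0 was an alternative. FPKM were used to compare levels between genes, with no test. In wells, shares, summed CPM, an Nts division at 100 CPM and Spearman rho were computed without tests.

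The members and all gene lists were chosen with earlier results of these data known. Some genes of the comparison lists are not reported here. Values in every library are given for members called in any contrast, 6 stress-inducible members and the 4 with the highest FPKM, and of other lists up to 4 called genes. Replicates are labelled biological, and whether they came from separate animals is not given. A replicate block, other scalings and filters, and left-out libraries were also run.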

Additional observations from a re-analysis of the deposited data

How the results depend on the processing

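Hspa4 and Hspa9 were called for NA and PFC against RSC and VHN in all 19 alternatives, and Hspa4l, Hsp90ab1, Hspe1, Dnaja1, Dnajb1 and Stip1 in all except the omission of RSC replicates 2 and 3 and VHN replicate 3. That omission left 1 member called in the 4-group test, 2 for NA and PFC against RSC and VHN, 0 for NA minus PFC, 0 for NA minus RSC, 1 for PFC minus RSC and 1 for PFC minus VHN, with fewer samples in the fit. Without NA replicate 2 and PFC replicate 3 the members called were 0 for NA minus PFC, 2 for NA minus VHN and 7 for PFC minus VHN. With no scaling beyond the total they were 0 for NA minus PFC and 2 for NA minus VHN. With no filter on low counts they were 15 in the 4-group test, 6 for NA minus PFC and 1 for NA minus VHN. With DESeq2 they were 15 in the 4-group test, 5 for NA minus PFC, 3 for NA minus VHN and 8 for PFC minus VHN. The cause of these changes was not tested. Leaving out 1 library at a time gave 5 to 12 members in the 4-group test and 8 to 12 for NA and PFC against RSC and VHN. It gave 0 to 4 for NA minus PFC, 1 to 5 for NA minus RSC and 0 to 1 for NA minus VHN. For PFC minus RSC it gave 7 to 15, for PFC minus VHN 3 to 7 and for RSC minus VHN 0 to 0. The share of all genes called moved too. For NA and PFC against RSC and VHN, 10 members were called with no filter, beside 11.6% of all genes, and 12 with DESeq2, beside 14.5%. Without VHN replicate 2 there were 8, beside 10.1%, and without NA replicate 2 there were 12, beside 14.7%. For the other contrasts the shares of all genes in these settings are not reported here.

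The replicate numbers of the table, which may not be those of the labels, did not pair the libraries: of 18 same-numbered pairs 0 had a correlation of deviations above 0.1 (-0.026 to 0.038), and 2 of 12 libraries correlated best with their own number. With the replicate block 9 members were called for NA and PFC against RSC and VHN, 3 for NA minus RSC and 1 for NA minus VHN.

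In the wells, 5 ratios near 1 crossed it. Hspa5 was at 1.06 in wells with an Slc17a7 count, an alternative chosen after seeing the data. Hspa8 was at 0.973 with Nts divided at 500 CPM. Hsp90aa1 was at 1.003 with Nts divided at 20 CPM, 1.009 at 500 CPM and 1.03 with wells divided by Slc17a6, also chosen after seeing the data. A planned division by Fn1 was not run, since Fn1 was not analysed in the wells. Depth limits the low members: Hspa1b, Hspb8, Cryab and Bag3 had at most 1044 fragments over all libraries.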
